A study of Mus musculus with 13 samples.

Results

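The HoxD cluster is a row of 9 protein-coding genes on mouse chromosome 2 (Hoxd13, Hoxd12, Hoxd11, Hoxd10, Hoxd9, Hoxd8, Hoxd4, Hoxd3 and Hoxd1). These 9 genes were taken by name from the GENCODE vM1 annotation of the mm9 genome build, out of 22367 protein-coding genes on chromosomes 1 to 19, X and Y. All 9 lie on the plus strand, and they span chr2:74506367-74603200, a stretch of 96834 bp. Peaks from 5 ChIP-seq lists were assigned to each gene where they overlapped its start by 1 kb on either side (its promoter here), or its annotated body.

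Hox genes encode homeodomain transcription factors that give cells their position along the body axis, and their order on the chromosome follows the order in which they are switched on along that axis and in time. The 3′ gene Hoxd1 and its neighbours act early and towards the head, whereas the 5′ genes Hoxd9 to Hoxd13 act late, in the trunk, limbs, digits and genitalia. In embryonic stem cells Hox clusters are silent and are classic targets of the Polycomb repressive complex PRC2, whose catalytic subunits EZH1 and EZH2 methylate lysine 27 of histone H3 (H3K27me3). AEBP2 is a zinc-finger accessory subunit of the PRC2.2 form of this complex.

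All 5 lists came from wild-type mouse embryonic stem cells (mESCs) of 129/1 background, described as an XY line, grown undifferentiated in serum with LIF. Endogenous AEBP2 and H3K27me3 each had 2 replicate ChIPs, and a plasmid-expressed AEBP2 with a Flag-StrepII tag at its N terminus (FS2-AEBP2), recovered by another ChIP protocol, had 1. E14 mESCs are named in the study's methods for the tagged protein, so tag, protocol and possibly cell line cannot be told apart in any difference between FS2-AEBP2 and endogenous AEBP2. The labels give the histone antibody as anti-H3K27 and the paper as H3K27me3. Cells with truncated Aebp2, SUZ12 and the inputs were not analysed here, so what follows describes 1 wild-type state and holds no treatment contrast and no p-value.

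The lists held 2877 and 6779 AEBP2 peaks, 2884 FS2-AEBP2 peaks, and 14112 and 9275 H3K27me3 peaks. The depth behind them is unknown, and the 2 H3K27me3 lists may bear swapped replicate numbers in their names, where the sample records were followed. As a check of cell identity, 1 of 16 annotated mESC marker genes, Tbx3, had H3K27me3 peaks in both replicates, against 12 of 15 markers of fibroblast, trophoblast, endoderm and neural cells and 15.0% of all promoters. The promoters of Pou5f1, Nanog and Sox2, which define mESCs, had no peak in any list. Of the other markers, Klf4 had a peak in FS2-AEBP2 and H3K27me3 replicate 1, and Klf2 in FS2-AEBP2. With Tbx3, FS2-AEBP2 peaks were at 3 of the 16 marker promoters, beside 6.53% of all promoters.

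The letters of the cluster show how different its starts are. The 250 bases before the RefSeq start of Hoxd13 (chr2:74506032-74506281, plus strand, matched once in mm9) are given because this start carried the highest FS2-AEBP2 score in the genome, and the 200 bases before the distal start of Hoxd4 (chr2:74559835-74560034, plus strand) because this start alone lacked a peak in some AEBP2 lists. Capitals mark CpG, the dinucleotide that is dense in CpG islands.
Hoxd13: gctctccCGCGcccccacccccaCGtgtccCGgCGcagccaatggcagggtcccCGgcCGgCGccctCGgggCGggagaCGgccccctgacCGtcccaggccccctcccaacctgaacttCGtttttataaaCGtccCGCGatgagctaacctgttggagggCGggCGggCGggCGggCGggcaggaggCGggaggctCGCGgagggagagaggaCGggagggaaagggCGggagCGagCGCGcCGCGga
Hoxd4 distal: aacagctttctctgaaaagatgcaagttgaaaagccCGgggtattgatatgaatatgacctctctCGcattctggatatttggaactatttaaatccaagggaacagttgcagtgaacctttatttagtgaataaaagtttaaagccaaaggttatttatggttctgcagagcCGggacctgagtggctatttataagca
The Hoxd13 stretch holds 31 CpGs at a GC content of 74.4%, and lay wholly inside peaks of all 5 lists. The Hoxd4 stretch holds 3 CpGs at a GC content of 38.5%. It was covered by AEBP2 replicate 2 and by both H3K27me3 lists, and by none of the AEBP2 replicate 1 or FS2-AEBP2 peaks. Over all 22362 protein-coding genes with a full window, the 200 bases before the outermost annotated start held a median of 7.0 CpGs. Over the 9 HoxD genes the median was 6.0, so HoxD as a group was not CpG-rich directly before these outermost starts. For Hoxd11 this start is that of a processed transcript, and for Hoxd4 it is the distal one. Their other starts were not counted.

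All but 1 of the HoxD promoters carried AEBP2 in every list, and all carried H3K27me3. AEBP2 replicate 1 had a peak at 8 of 9 HoxD promoters, where 9.08% of all protein-coding promoters had one. In AEBP2 replicate 2 the count was 9 of 9, beside 22.3% of all promoters. FS2-AEBP2 peaks were found at 8 of 9 HoxD promoters and at 6.53% overall. H3K27me3 was present at 9 of 9 in both replicates, beside 17.0% and 17.7% overall. A peak in both AEBP2 replicates was found at 8 HoxD promoters (8.44% of all), one in both H3K27me3 replicates at 9 (15.0% of all), and one in all 5 lists at 8 (4.57% of all). Hoxd4 was the exception each time.

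CpG-island-like regions are joined 500 bp windows that reach 55% GC and 0.65 of the CpGs their base composition predicts. Such a region lay within 1 kb of 8 of the 9 HoxD starts, and of 12312 of all 22367 protein-coding starts. Among the 12312 protein-coding promoters with such a region, the shares with a peak were 16.0% and 39.0% for AEBP2 replicates 1 and 2, 11.4% for FS2-AEBP2, and 24.5% and 27.5% for H3K27me3. The HoxD counts were above these shares too.

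Peaks filled most HoxD promoters. The whole window of 1 kb on either side lay inside peaks at 6 HoxD genes in AEBP2 replicate 1, 8 in replicate 2 and 6 for FS2-AEBP2, where 1.37%, 2.56% and 1.18% of all promoters were filled in this way. In the H3K27me3 lists 9 of 9 windows were filled in each replicate, beside 9.24% and 8.76% of all promoters. Gene bodies held a peak at 9 of 9 HoxD genes in every list, and were wholly covered at 3 genes in AEBP2 replicate 1, 7 in replicate 2 and 4 for FS2-AEBP2. The share of all genes with a wholly covered body is not given, so the counts of wholly covered bodies have no comparison. Over all genes the share with a peak over the body was 10.3% and 24.9% for the AEBP2 replicates, 7.69% for FS2-AEBP2, and 20.8% and 20.2% for H3K27me3.

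**Figure D1:**
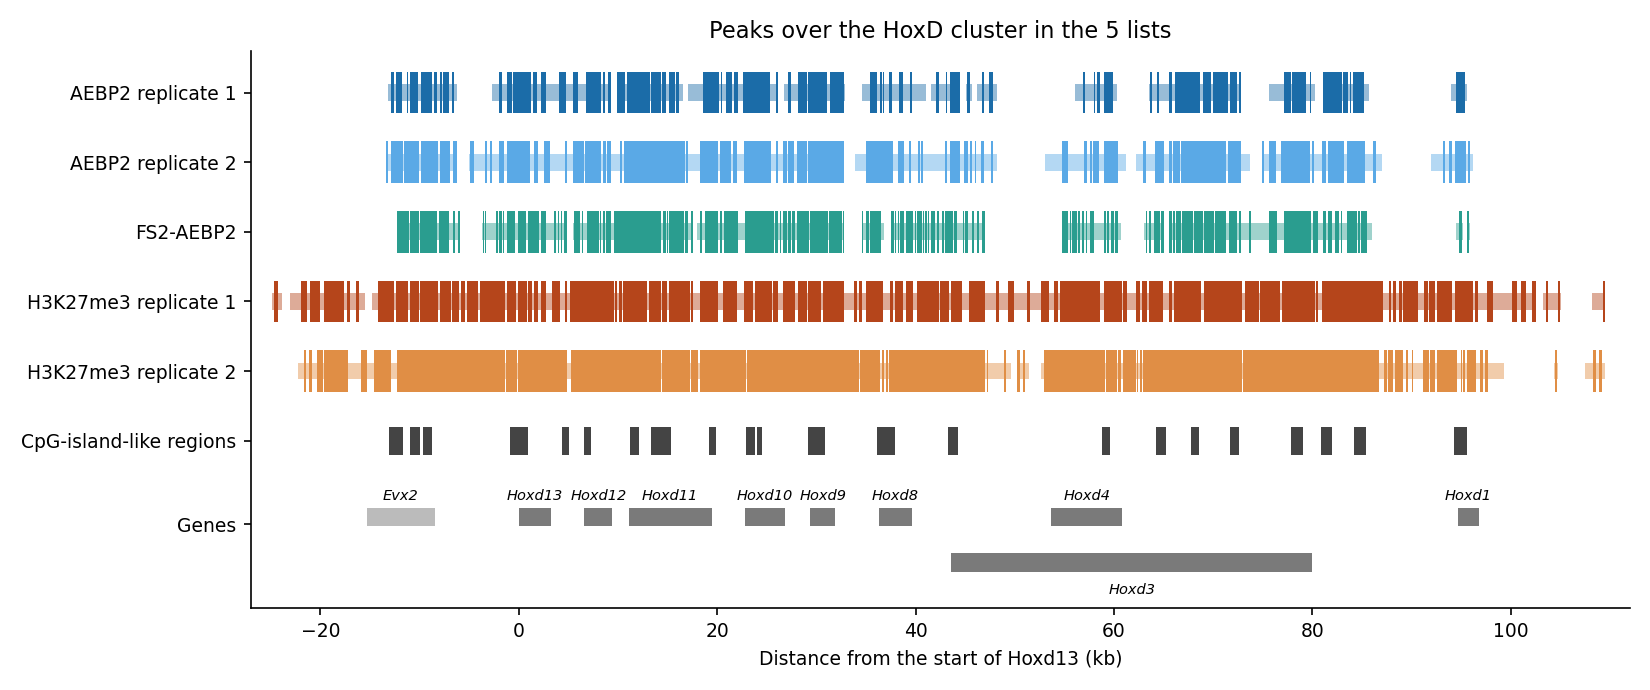
Peaks of the 5 lists over HoxD, by distance from the start of Hoxd13 in kb. Pale bars are whole peaks, dark blocks are the inner stretches marked in the lists, black boxes are CpG-island-like regions and grey boxes are genes. H3K27me3 runs through the cluster almost without a break, whereas the AEBP2 peaks are separated by gaps that become wider on the Hoxd1 side.

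The genes of groups 9 to 13 had the highest AEBP2 coverage of the cluster. Hoxd13, which patterns digits and genitalia, lay under a 12025 bp peak in AEBP2 replicate 1 that it shared with Hoxd12, under a 37807 bp peak in replicate 2, and under an 8526 bp peak for FS2-AEBP2. Its FS2-AEBP2 peak had a score of 130, the highest of the 2884 in that list. The deposited score has no stated scale, so it is given only as a rank within its own list. In AEBP2 replicate 1 the peak over Hoxd13 and Hoxd12 had a score of 35, above 97.4% of the list, and in replicate 2 the score of 27 was above 92.1%.

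Hoxd12 and Hoxd11, which act with Hoxd13 in the distal limb, shared a 12041 bp FS2-AEBP2 peak whose score of 50 was above 94.6% of the list. In AEBP2 replicate 1 Hoxd11 had its own peak of 6629 bp, above 93.4% of the list by score. Hoxd10 and Hoxd9, genes of the lumbar spinal cord and limb, were both under a 14860 bp FS2-AEBP2 peak above 98.1% of that list. Their AEBP2 replicate 1 peaks were separate, 9022 bp at Hoxd10 and 6139 bp at Hoxd9, above 91.9% and 95.7% of the list by score. In AEBP2 replicate 2 the single 37807 bp peak took in the starts of Hoxd13, Hoxd12, Hoxd11, Hoxd10 and Hoxd9, and it was the 3rd longest peak of its list.

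Hoxd8 and Hoxd3 were marked in all 5 lists, but their ranks at the outermost annotated start depended on the AEBP2 replicate. Hoxd8, a gene of the trunk, had a 6427 bp peak in AEBP2 replicate 1 with a score of 10, above 67.7% of the list. In replicate 2 a 14308 bp peak with a score of 43 covered the starts of Hoxd8 and Hoxd3 together and stood above 97.4% of the list. The FS2-AEBP2 peak at the Hoxd8 start was 2166 bp long and above 89.7% by score. Hoxd3, which helps to pattern the first cervical vertebrae, had a 2892 bp peak in AEBP2 replicate 1 (above 85.0%) and a 9426 bp FS2-AEBP2 peak (above 88.8%). These values belong to the outermost of its 6 distinct annotated starts, and ranks differed at others. At the start of transcript Hoxd3-003 they were 62.5% and 76.7% in AEBP2 replicates 1 and 2 and 82.4% for FS2-AEBP2. At that of Hoxd3-004 they were 92.8%, 94.5% and 96.3%. Further into the Hoxd3 body and beyond its end lay the longest FS2-AEBP2 peak of the cluster, of 20445 bp and above 96.3% by score, where AEBP2 replicates 1 and 2 each had separate shorter peaks. By score rank, Hoxd8 was thus below Hoxd9 and Hoxd13 in AEBP2 replicate 1 and above them in replicate 2.

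Hoxd1, at the 3′ end and among the first genes of the cluster to respond to retinoic acid, had the shortest peak at a HoxD start in each AEBP2 list. Its peak measured 1621 bp in AEBP2 replicate 1, 4148 bp in replicate 2 and 653 bp for FS2-AEBP2. The scores of 9, 29 and 8 stood above 62.5%, 93.1% and 42.5% of the respective lists, so Hoxd1 ranked lowest among HoxD starts with a peak in AEBP2 replicate 1 and FS2-AEBP2, but not in replicate 2, where Hoxd4 did (76.7%). The Hoxd1 body was covered to 43.0%, 68.9% and 36.2%, the lowest share of the 9 genes in each of these 3 lists.

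**Figure D2:**
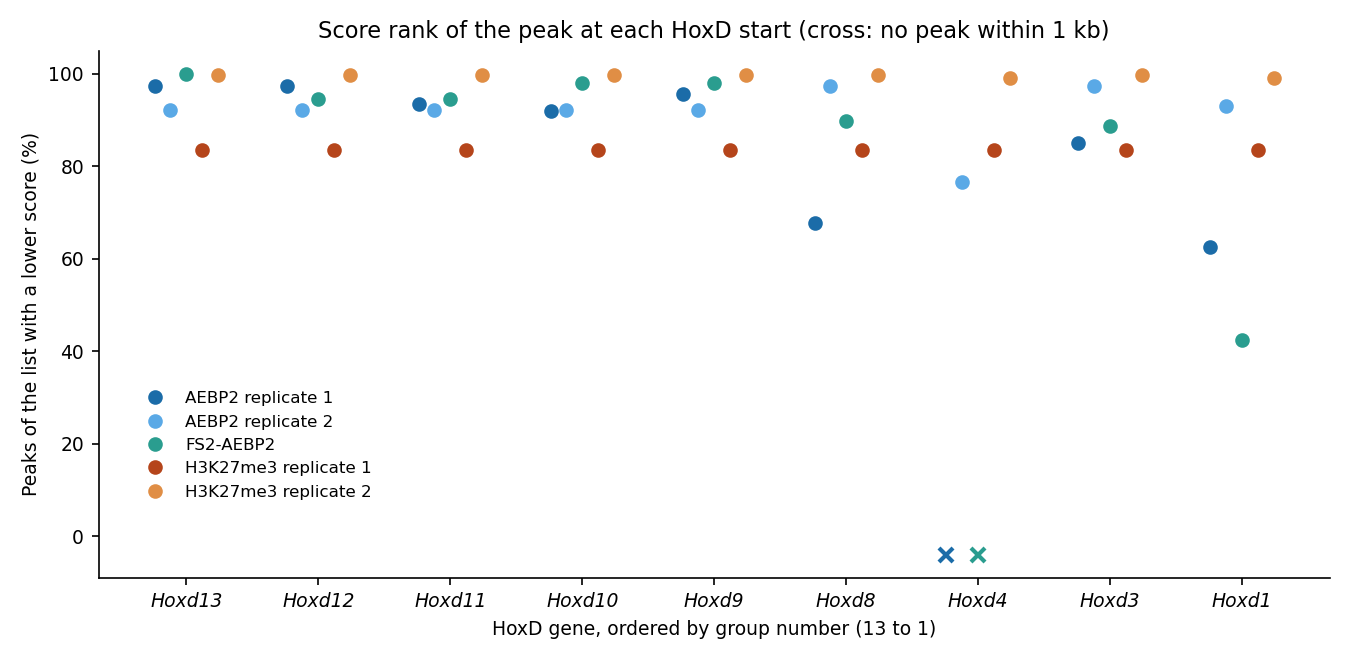
Score rank of the peak at each HoxD start, as the percentage of peaks of the same list with a lower score, for the 5 lists. A cross marks a start without a peak within 1 kb, which applied to Hoxd4 in AEBP2 replicate 1 and FS2-AEBP2. FS2-AEBP2 falls to 42.5% at Hoxd1, and AEBP2 replicate 1 to 67.7% at Hoxd8 and 62.5% at Hoxd1.

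Hoxd4, a gene of the hindbrain and cervical region, has 2 annotated starts, and the missing peaks belonged to only one of them. The distal start (at chr2:74560035), which is the outermost and therefore the gene start used above, was 2381 bp from the nearest AEBP2 replicate 1 peak and 1086 bp from the nearest FS2-AEBP2 peak. In AEBP2 replicate 2 an 8129 bp peak with a score of 14 covered 79.9% of its window. Both H3K27me3 lists covered the window wholly. The window had a GC content of 46.3% and a CpG ratio (observed over expected) of 0.215, the lowest of the 9 genes.

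The proximal start (at chr2:74565131) lay inside a peak in all 5 lists, with its whole window covered in each. These peaks were 4237 bp long in AEBP2 replicate 1 (score 9), 8129 bp in replicate 2 and 5921 bp for FS2-AEBP2 (score 24). The start falls in a CpG-island-like region, chr2:74565121-74565960, of 840 bp. Part of this region that lies in the last intron (chr2:74565763-74565960, plus strand, CpG in capitals) is given as an example of its sequence.
Hoxd4 intron: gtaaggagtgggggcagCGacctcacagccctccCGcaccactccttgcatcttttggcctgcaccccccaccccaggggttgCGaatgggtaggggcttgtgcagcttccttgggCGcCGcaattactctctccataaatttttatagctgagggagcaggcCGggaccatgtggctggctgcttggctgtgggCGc
These 198 bases hold 7 CpGs at a GC content of 61.6%, against 3 in the 200 bases before the distal start. Counting any protein-coding transcript start, all 9 HoxD genes had a peak in all 5 lists. The share of all genes counted in this way is not given, so this count has no comparison. The Hoxd4 body was covered to 59.0% in AEBP2 replicate 1, 100% in replicate 2 and 82.4% for FS2-AEBP2, and to 100% in both H3K27me3 lists.

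**Figure D3:**
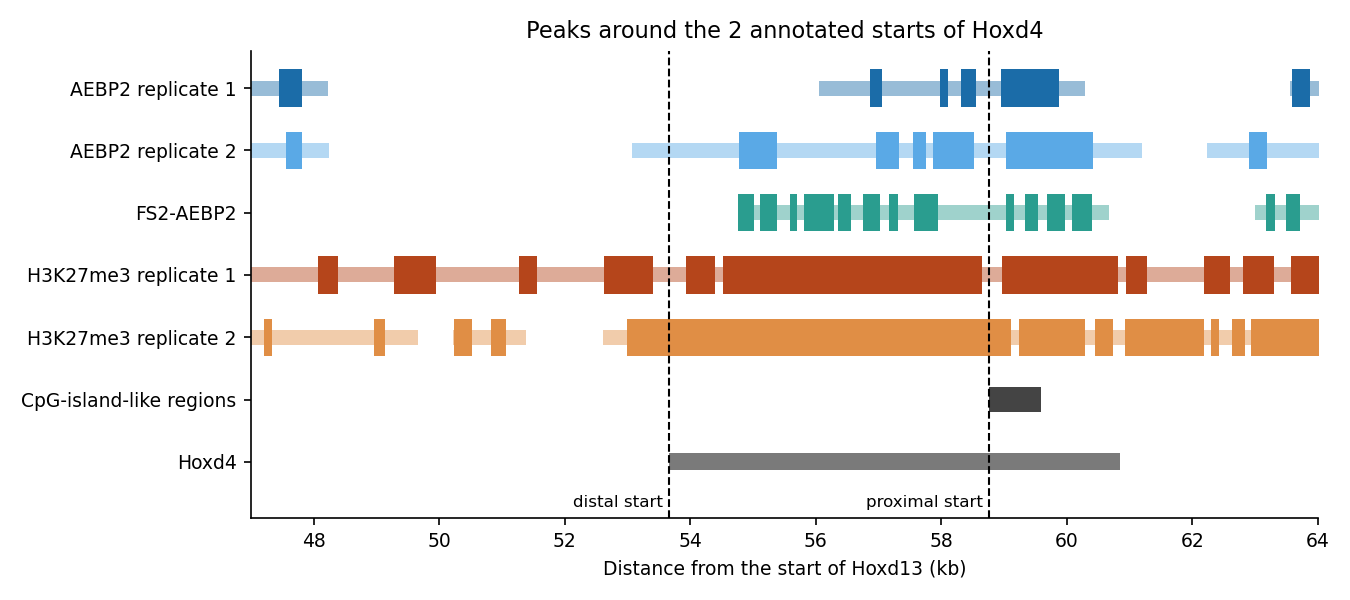
The Hoxd4 region, by distance from the start of Hoxd13 in kb, with dashed lines at its distal and proximal starts and the same marks for peaks and inner stretches as in the map of the cluster. The distal start lies between peaks in AEBP2 replicate 1 and FS2-AEBP2, and the proximal start lies inside peaks in all 5 lists at the edge of a CpG-island-like region.

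Over the whole HoxD interval, AEBP2 peaks covered 69.5% of bases in replicate 1 and 85.8% in replicate 2 (mean 77.6% ± 11.5, SD, n = 2). FS2-AEBP2 covered 75.1%. H3K27me3 covered 100% and 98.2% (99.1% ± 1.30, SD, n = 2). Genome-wide the same lists covered 0.215% and 0.414%, 0.207%, and 1.83% and 1.21%. These shares depend on depth and calling, which may differ between lists.

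Within HoxD the 5′ block from Hoxd13 to the end of Hoxd9 (31899 bp) was more fully covered than the remaining 64935 bp in each AEBP2 list. AEBP2 replicate 1 covered 94.6% of the 5′ block and 57.2% of the rest. Replicate 2 covered 100% and 78.8%, and FS2-AEBP2 covered 96.7% and 64.5%. The means over the AEBP2 replicates were 97.3% ± 3.85 and 68.0% ± 15.3 (SD, n = 2), with no overlap between the sections. CpG-island-like sequence, which moves with this contrast, made up 28.5% of the 5′ block and 17.3% of the rest, and its part in the difference was not tested. H3K27me3 left little room for such a contrast, at 100% in the 5′ block in both replicates and 100% and 97.3% in the rest.

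HoxA and HoxC are given to place this contrast, and HoxB was not split in this way. In HoxA, AEBP2 covered 76.5% and 81.5% of the part with genes of groups 9 to 13 and 47.2% and 64.9% of the rest, while FS2-AEBP2 covered 92.0% and 94.6%. In HoxC these shares were 77.6% and 95.9% against 62.5% and 79.6% for AEBP2, and 87.3% against 79.5% for FS2-AEBP2. The higher 5′ coverage by endogenous AEBP2 was therefore not particular to HoxD, whereas the FS2-AEBP2 values in HoxA ran slightly the other way. A peak at the start in all 5 lists was found for 10 of 10 HoxB and 9 of 9 HoxC genes, beside 8 of 9 in HoxD.

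**Figure D4:**
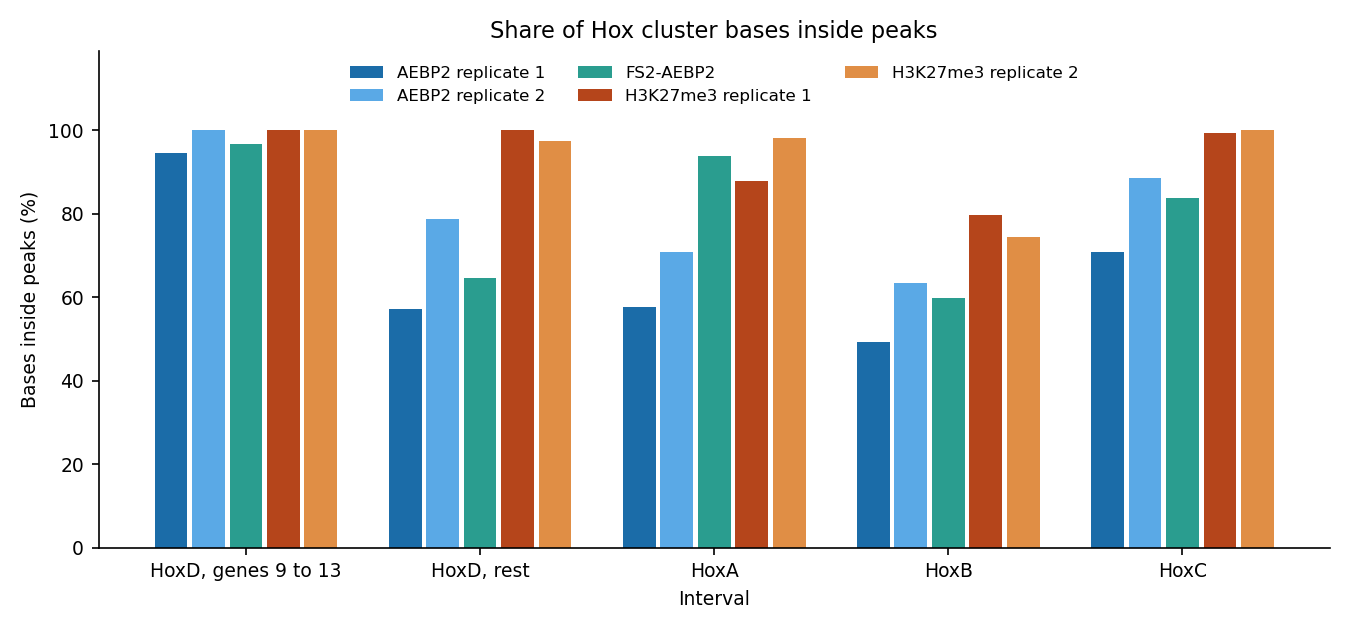
Percentage of bases inside peaks of each of the 5 lists, for the HoxD genes of groups 9 to 13 and the rest of HoxD, and for the whole HoxA, HoxB and HoxC intervals. Bars start at 0 and are single lists with no error. In HoxD the AEBP2 and FS2-AEBP2 bars reach 94.6% to 100% over groups 9 to 13 and 57.2% to 78.8% over the rest.

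The lists also mark inner stretches within each peak, in the layout that broad peak callers use for sub-regions passing a stricter cutoff, which is not stated. Inner stretches made up 41.2% and 53.7% of HoxD bases in the AEBP2 replicates, 52.4% for FS2-AEBP2, and 76.6% and 88.4% for H3K27me3. Over Hoxd13 to Hoxd9 the AEBP2 shares were 62.6% and 73.6%, against 30.6% and 43.9% in the rest, so the contrast between the sections remained at this level. For FS2-AEBP2 they were 77.3% and 40.2%. For H3K27me3 they were 79.7% and 97.2% over the 5′ genes, against 75% and 84.1% in the rest. Of the HoxD promoters, 8 held an inner stretch in each AEBP2 list and in FS2-AEBP2, and Hoxd4 was again the one without. The share of all promoters with an inner stretch is not given, so this count has no comparison.

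AEBP2 lay entirely inside the H3K27me3 domain, as the near-complete H3K27me3 coverage of the interval all but required. In HoxD, 100% of the bases under AEBP2 peaks of either replicate, and 100% under FS2-AEBP2 peaks, were inside H3K27me3 peaks of each replicate. After rounding, 100% of AEBP2 replicate 1 bases were inside replicate 2 peaks, although a few bases after Hoxd9 were not. Of replicate 2 bases, 81.0% were inside replicate 1 peaks. FS2-AEBP2 covered 93.1% of replicate 1 bases and 86.1% of replicate 2 bases.

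The H3K27me3 peaks also reached past those of AEBP2 at both ends. In replicate 1 a single H3K27me3 peak of 117362 bp, the 3rd longest of its list, held all 9 genes (chr2:74491551-74608912). In replicate 2 the cluster was split into a 71900 bp peak from beyond Evx2 into Hoxd3 and a 46728 bp peak holding the starts of Hoxd4 and Hoxd1, with scores of 39 and 35 that stood above 99.7% and 99.2% of the list. The single replicate 1 peak had a score of 13, above 83.5% of its longer list.

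Joining peaks up to 5 kb apart, and taking the outermost bases of the joined peaks that touched HoxD, the AEBP2 span was 108797 bp in replicate 1 and 109586 bp in replicate 2, and the FS2-AEBP2 span was 108207 bp. On the Evx2 side AEBP2 began at positions 74493170 and 74492941, 229 bp apart, and FS2-AEBP2 at 74494064, all within the body of Evx2. Evx2, a homeobox gene next to Hoxd13 that is active in limb and spinal cord, had a promoter peak in all 5 lists. On the 3′ side AEBP2 ended at 74601966 and 74602526 and FS2-AEBP2 at 74602270, each before the end of Hoxd1 at 74603200. H3K27me3 began at 74481529 and 74484122 and ended at 74615898 and 74605699, so it ran past Evx2 by 9520 and 6927 bp and past Hoxd1 by 12698 and 2499 bp. The 3′ end of H3K27me3 differed by 10199 bp between replicates when peaks were joined at 5 kb, but this rested on the joining distance. Both replicates had a small outlying peak there, and joining at 10 kb put the ends at 74615898 and 74615824.

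Beyond these edges the neighbouring genes were bare. Lnp on the Evx2 side and Mtx2 on the Hoxd1 side, both expressed in many cell types, had no peak at the start or over the body in any list. The nearest H3K27me3 peaks were 64037 and 66630 bp from Lnp, and 47962 and 48036 bp from Mtx2. Of the more distant Atp5g3, Chn1, Hnrnpa3 and Nfe2l2, Chn1 had an AEBP2 replicate 2 peak at its start and the other 3 had none in any list.

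Some gaps between AEBP2 peaks were shared by the 3 lists, and edges were compared only at such shared gaps. In HoxD, AEBP2 replicate 1 left 13 stretches uncovered, replicate 2 left 6 and FS2-AEBP2 left 10, so other gaps were not shared. After Hoxd9 the AEBP2 block stopped at 74539203 in replicate 1, 74539189 in replicate 2 and 74539195 for FS2-AEBP2, positions that lie within 15 bases of each other and 924 to 938 bp past the annotated end of Hoxd9. The 150 bases around this shared end (chr2:74539120-74539269, plus strand) are given with the 15 bases between the first and the last of the 3 ends in capitals.
HoxD block end: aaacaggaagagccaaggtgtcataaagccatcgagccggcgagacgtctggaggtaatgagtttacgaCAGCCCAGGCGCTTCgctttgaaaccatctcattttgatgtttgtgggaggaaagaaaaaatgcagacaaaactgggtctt
The following gap was 1744, 1108 and 1783 bp long in AEBP2 replicate 1, AEBP2 replicate 2 and FS2-AEBP2. It was covered by H3K27me3 in both replicates. On the far side of this gap the first bases of the next peaks were spread over 681 bp. At 2 other gaps the AEBP2 replicates also ended close together, at 74554588 and 74554605 before the Hoxd4 distal start and at 74500109 and 74500117 between Evx2 and Hoxd13, whereas FS2-AEBP2 ended at 74553345 and 74500465. After Hoxd4 the last bases of the 3 lists were spread over 913 bp, and between Hoxd3 and Hoxd1 over 1368 bp.

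In all, 5 stretches of HoxD had no AEBP2 or FS2-AEBP2 peak in any list, of 1094, 4831, 1033, 4974 and 674 bp. They add up to 12606 bp, or 13.0% of the interval, and hold no transcript start of the Hox genes and no CpG-island-like region. Their GC content was 42.3% with 7.30 CpGs per kb, against 50.4% and 31.1 per kb for bases under a peak of at least 1 of the 3 lists. Exons of the Hox genes made up 5.35% of the bare bases and 30.8% of the covered ones. Exons of other genes in the interval were not counted. The 2 breaks of 568 and 1216 bp between H3K27me3 peaks of replicate 2 both fell in the 4831 bp stretch before Hoxd4 that AEBP2 also left bare.

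CpG-island-like regions were covered throughout. HoxD held 19 of them, 570 to 2000 bp long, and each had a peak in every list. They were covered over their whole length in 18 cases in AEBP2 replicate 1, 19 in replicate 2 and 15 for FS2-AEBP2, and in 19 in each H3K27me3 list. The shares over all such regions of the genome are not given, so these counts have no genome-wide comparison. A peak at every such region was not particular to HoxD. In AEBP2 replicate 1, 18 of 18 regions in HoxC and 22 of 24 in HoxB had one. Of CpG-island-like bases, AEBP2 covered 99.2% and 100% and FS2-AEBP2 91.2%. Of the other bases of HoxD, AEBP2 covered 61.6% and 82.0% and FS2-AEBP2 70.8%, so AEBP2 peaks also spread well beyond these regions.

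CpG density rose with the number of AEBP2 lists that covered a position. The interval was cut into 193 bins of 500 bp, which are neighbours on 1 chromosome and not independent. In the 25 bins that none of the 3 lists covered to at least 50%, the median was 6 CpGs per kb (0 to 20). It was 10 in 17 bins covered by 1 list, 16 in 23 bins covered by 2 and 26 in 128 bins covered by all 3 (2 to 144). Of the 91 bins with over 20 CpGs per kb, 80 were covered by all 3 lists and 0 were without cover, but CpG-poor bins were also found among those covered by all 3.

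**Figure D5:**
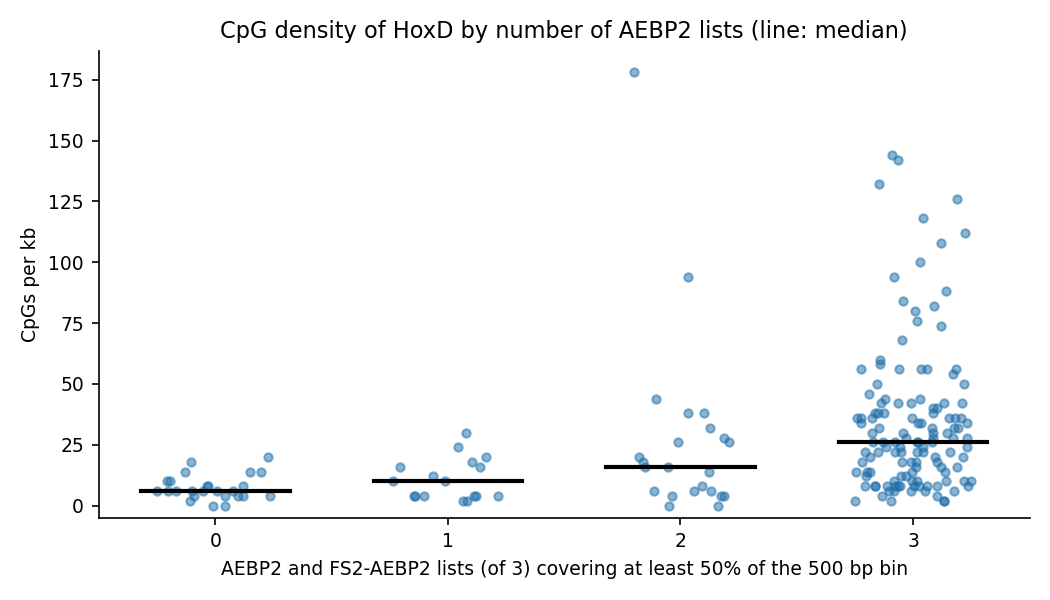
CpGs per kb in 193 bins of 500 bp across HoxD, by how many of the 3 AEBP2 and FS2-AEBP2 lists covered at least 50% of the bin. Points are bins, spread sideways for legibility, and black lines are medians, which rise from 6 to 26.

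The most CpG-dense gaps belonged to the FS2-AEBP2 list, which has no replicate. A stretch of 775 bp at the start of Hoxd8 (chr2:74543145-74543919) lay between FS2-AEBP2 peaks although its GC content was 77.8% and it held 127 CpGs, and it was covered in both AEBP2 lists and both H3K27me3 lists. Another of 450 bp in Hoxd1 (chr2:74601548-74601997) had a GC content of 66.2%. Coding bases of the first stretch (chr2:74543605-74543804) and intron bases of the second (chr2:74601811-74601997), both on the plus strand, are shown with CpG in capitals.
Hoxd8 coding: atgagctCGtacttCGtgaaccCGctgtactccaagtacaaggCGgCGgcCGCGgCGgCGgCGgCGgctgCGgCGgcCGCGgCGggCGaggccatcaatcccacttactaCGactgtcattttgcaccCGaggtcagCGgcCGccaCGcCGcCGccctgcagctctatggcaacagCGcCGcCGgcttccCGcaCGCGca
Hoxd1 intron: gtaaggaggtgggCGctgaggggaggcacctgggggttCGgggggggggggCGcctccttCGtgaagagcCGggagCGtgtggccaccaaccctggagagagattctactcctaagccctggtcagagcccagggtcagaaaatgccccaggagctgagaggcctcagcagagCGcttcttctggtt
The 200 bases from Hoxd8 hold 30 CpGs at a GC content of 70%, and the 187 bases from Hoxd1 hold 7 at 64.7%. How well reads from such GC-rich sequence were recovered in the FS2-AEBP2 library was not tested. At the other 17 CpG-island-like regions FS2-AEBP2 covered 74.8% or more of the bases.

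The cluster also holds a microRNA, Mir10b, between the starts of Hoxd4 (hairpin at chr2:74564127-74564194, plus strand). Its relative Mir10a lies in HoxB (chr11:96178479-96178588, plus strand). Their mature 5p strands are given from RefSeq (GRCm38.p6) with the seed, bases 2 to 8, in capitals, because the pair shows how the paralogous clusters share elements as well as Hox genes.
miR-10b-5p: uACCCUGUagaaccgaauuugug
miR-10a-5p: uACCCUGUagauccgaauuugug
The seeds are identical and the mature strands differ at 1 of 23 positions. Both hairpins lay inside peaks of all 5 lists. The peak over Mir10b was 4237 and 8129 bp long in the AEBP2 replicates and 5921 bp for FS2-AEBP2, the same peaks that held the proximal start of Hoxd4. Over Mir10a these lengths were 13555, 87283 and 75653 bp.

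Of 28 cofactors, upstream regulators and signals of Hox genes, a promoter peak was found for 12 in AEBP2 replicate 1, 18 in replicate 2, 13 for FS2-AEBP2, and 19 and 20 in the H3K27me3 replicates, and 12 had one in all 5. These counts stand beside 9.08%, 22.3%, 6.53%, 17.0%, 17.7% and 4.57% of all promoters. The lists disagreed on Bmp4, a ligand of the BMP pathway, and on Cdx1 and Cdx4, caudal-type activators of Hox genes, whose promoters had peaks only in both H3K27me3 lists and AEBP2 replicate 2. They also disagreed on Cyp26b1, which degrades retinoic acid, where the promoter had only H3K27me3 peaks. AEBP2 peaks covered part of the Cyp26b1 body, at 32.9% and 55.3% in the replicates and 46.2% for FS2-AEBP2.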

How the data were processed

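ChIP-seq libraries of AEBP2, FS2-AEBP2 and H3K27me3 from wild-type mESCs were analysed from 5 peak lists. Per the labels, the authors used Bowtie, SAMtools, Picard and MACS2 2.0.10.2 on mm9, without stated roles, thresholds or duplicate handling. They called peaks separately in each sample and deposited a start, an end, a whole-number score of unstated scale and inner stretches for each peak. A deeper library yields more and longer peaks, and no depth is given, so differences between lists in number, length or coverage of peaks are not differences in amount of protein or mark.

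Only peaks of the autosomes, X and Y were kept. A peak counted where it overlapped by at least 1 bp the window of 1 kb on either side of the outermost gene start, or the gene body, in GENCODE vM1. Scores were ranked within a list. CpG-island-like regions were joined 500 bp windows, taken every 10 bp. Domains joined peaks up to 5 kb apart. Shares of all promoters have 95% Wilson intervals no wider than 1 percentage point on either side, which cover counting error only. No test between conditions was possible. The 9 members, the gene lists and the sections of the cluster were chosen with earlier results of these data known. Named genes were all members, the flanking genes, and at most 4 genes per list on which the lists disagreed, in alphabetical order. The count of HoxA promoters with a peak is not reported here. Windows, score, coverage and join settings were varied. Python 3.11.15, numpy 2.4.6, pandas 2.3.3 and matplotlib 3.10.9 were used, and the overlap functions were tested on simulated lists.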

Additional observations from a re-analysis of the deposited data

How the results depend on the processing

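Of 104 alternative values, 85 stayed within 1.5 times the count or within the SD of the 2 replicates, and 19 did not. For FS2-AEBP2 a binomial interval was used, or for its span the AEBP2 SD. Directions were not compared. All counts of HoxD genes with a peak were among the 85. A limit of 1.5 times is wide for counts near the maximum of 9. Leaving out 1 of 2 replicates always gives a coverage, span, rank or share within their SD. Those values were therefore bound to be among the 85. Leaving out either replicate gave 8 to 9 AEBP2-marked HoxD promoters and 9 for H3K27me3, AEBP2 coverage of 69.5% to 85.8%, H3K27me3 coverage of 98.2% to 100%, and spans of 108.797 to 109.586 kb and 121.578 to 134.37 kb. With inner stretches only, an alternative chosen after seeing the data, coverage fell to 47.4% for AEBP2, 52.4% for FS2-AEBP2 and 82.5% for H3K27me3, since these stretches are parts of the peaks. Joining at 2 kb shortened the span to 103.95 kb for AEBP2 and 99.57 kb for FS2-AEBP2, because the Evx2 peak then stood apart in AEBP2 replicate 1 (98314 bp) and FS2-AEBP2, while AEBP2 replicate 2 kept 109586 bp, and peaks at or above the median score gave 98.324 kb for FS2-AEBP2, because the Hoxd1 peak dropped out. The median score rank at HoxD starts was 92.4% for AEBP2, 94.6% for FS2-AEBP2 and 91.6% for H3K27me3, and among promoter peaks only 90.5%, 90.7% and 77.9%. For FS2-AEBP2 it was 96.3% by the best peak of the gene body. The share of all promoters with a peak was 15.7% for AEBP2, 6.53% for FS2-AEBP2 and 17.4% for H3K27me3. With windows of 500 bp and 2.5 kb it was 5.74% and 7.07% for FS2-AEBP2 and 15.8% and 18.9% for H3K27me3, with peaks at or above the median score 9.30%, 3.94% and 14.0% for AEBP2, FS2-AEBP2 and H3K27me3, and among CpG-island-like promoters 27.5%, 11.4% and 26.0% for AEBP2, FS2-AEBP2 and H3K27me3. No paired analysis was possible because none of the values comes from a test. The unknown depth and the single FS2-AEBP2 list limit every comparison between lists, and a bare stretch is one where no peak was called at that depth.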

Other observations

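HoxD holds 7 further annotated genes, namely Mir10b, the noncoding genes 1700109F18Rik and 6720416L17Rik, and Gm14396, Gm20440, Gm14424 and Gm14426. All 7 had a peak within 1 kb of the start in all 5 lists, beside 4.57% of all protein-coding promoters. Their bodies differed more. 6720416L17Rik, which lies on the opposite strand to the Hox genes and runs through the sparse section between Hoxd3 and Hoxd1, was covered to 36.7% and 65.6% in the AEBP2 replicates, to 41.2% for FS2-AEBP2 and to 100% in both H3K27me3 lists. Gm14426 lay wholly inside an AEBP2 replicate 2 peak and was 476 bp from the nearest AEBP2 replicate 1 peak and 125 bp from the nearest FS2-AEBP2 peak. 1700109F18Rik, which overlaps Hoxd8 on the opposite strand, was covered to 86.5%, 100% and 87.4% in AEBP2 replicates 1 and 2 and FS2-AEBP2.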
